A study of Mus musculus with 18 samples.

Results

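The sites described here are binding sites of RAD21, a subunit of cohesin, that lie far from protein-coding transcription starts in mouse B cells. Peaks of the 3 pooled lists, 1 for each time point, were merged into 1 site where they shared at least 1 bp, and a site was kept when its centre lay more than 200 kb from the start of every protein-coding transcript annotated on mouse genome assembly mm9. Of 15705 merged sites, 1097 met this rule, or 6.99% (95% exact binomial interval 6.59 to 7.39, which covers counting error only, as do all intervals below). The sequence more than 200 kb from a start made up 24.1% of the sequenced genome, so the sites were 0.289 times as frequent there as an even spread would give. Of the 1097 sites, 935 lay in no protein-coding transcript and 162 lay inside a long one, 160 of them in introns and 2 in an exon. Only 458 were also more than 200 kb from the start of any annotated transcript, non-coding ones included. The other 639 had such a start within 200 kb, 34 of them within 3 kb. The name gene desert thus holds for only a part of the 1097, and they are called promoter-distant sites here, after the distance to protein-coding starts.

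RAD21 was immunoprecipitated from splenic B cells of C57BL/6 mice (C57BL/6J in the study's methods) of 8 to 10 weeks with no transgene, deletion or other allele named. Resting B cells were compared with cells stimulated for 48 h or 96 h. The stimulus combined LPS (50 µg/ml), a component of bacterial outer membranes, with the cytokine IL-4 (2 ng/ml). The 96 h cells had also been enriched for IgG1-positive cells by negative selection, so that time and purification cannot be told apart. Each time point had 3 replicates, each from the pooled cells of 12 mice. A bulk peak list cannot tell a site bound in fewer cells from a site bound less firmly. The replicate lists held 821 to 8579 peaks and no read counts, so the depth behind a single peak is unknown. Replicate 2 of the 48 h-stimulated B cells stood apart from the other 8: 61.8% of its 5254 peaks carried a tandem repeat, against 2.97% to 5.63% in the others, and 181 of its peaks carried the motif described below. The shares and densities it moves most are also given without the sites that no other replicate supported, a count made after seeing the data.

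Cohesin is a ring of SMC proteins closed by RAD21. It loads onto DNA, moves along it and forms loops, and in mammalian cells it halts mostly where the zinc finger protein CTCF is bound, in an orientation set by the CTCF motif. Gene deserts often flank genes with complex regulation, whose enhancers can lie far away, and domains within them are bounded by cohesin and CTCF sites.

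Sequences of both main kinds of promoter-distant site are shown because nearly all later results divide along them. A motif of 20 bases, with the consensus NNNNCCACNAGGGGGCGCNN, was learned from 399 sites within 200 kb of a start, and its letters are those of the known CTCF motif. It was searched on both strands within 100 bp of a site's centre, at a level that 5.00% of windows 1000 bp away from sites pass. Each sequence below is 30 bases of mm9, 5′ to 3′, with the motif match or the tandem repeat in capitals.
Phlpp1 to Bcl2, motif, chr1:108292285-108292314, minus strand: aactaCTCACCAGTAGGTGGTGCTAtaaca
Ebf1 to Clint1, motif, chr11:44821797-44821826, minus strand: tggctCATGCCAGCAGAGGGCAGCAgtacg
Med13l to Tbx3, motif, chr5:119231753-119231782, plus strand: cacatGTGGCCAGCAGGTGTCGCCAcagac
Lrrtm3 to Jmjd1c, repeat, chr10:66004839-66004868, plus strand: cttccCTCTCTCTCTCTCTCTCTCTgttct
Nrg3 intron, repeat, chr14:39561023-39561052, plus strand: agaggGAGAGAGAGAGAGAGAGAGAGAGAG
Agbl1 to Ntrk3, neither, chr7:84177447-84177476, plus strand: tcctgtctcctgtctcctgtctcctgtctc
The first 3 hold the motif and the next 2 an uninterrupted run of AG or CT. The last has no capitals because only runs of 20 bases or more built from units no longer than 4 bases counted as repeats, and its unit is longer.

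Of the 1097 promoter-distant sites, 354 (32.3%) had the motif and 532 (48.5%) had a tandem repeat, with 14 sites in both sets. Without the sites that only replicate 2 of 48 h supported the order turned, with the motif at 352 of 556 (63.3%) and a repeat at 108 (19.4%), against 88.0% and 4.44% of 13152 other sites. Among sites within 200 kb of a start, 79.1% of the 8267 on chromosomes not used to learn the motif had a match, and 10.5% of all 14608 had a repeat. The repeat unit was AG in 402 of the 532 distant repeat sites, AC in 43 and ACAG in 29, and the AG runs had a median length of 45 bases. A further 225 sites (20.5%) had neither feature, and 101 of these held at least 25 bases of a repeat when units of up to 10 bases were allowed.

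The promoter-distant sites fell mostly into a single pooled list. The 48 h list alone held 549 of them, or 50.0% (47.0 to 53.0), against 10.8% of the sites within 200 kb of a start. The 96 h list alone held 276 (25.2%, against 46.0%), and all 3 lists shared 89 (8.11%, against 15.7%). Of the others, 75 were in the 48 h and 96 h lists, 42 in the resting and 96 h lists, 40 in the resting list alone and 26 in the resting and 48 h lists. Without the sites that only replicate 2 of 48 h supported, the 48 h list alone held 67 of 556 (12.1%, against 2.08%), the 96 h list alone 271 (48.7%, against 51.0%) and all 3 lists 85 (15.3%, against 17.3%). The sites of the 48 h list alone and those of the 96 h list alone differed in sequence. In the 48 h list alone, 4 of 549 sites (0.729%) had the motif and 425 (77.4%) a tandem repeat. For 482 of these 549, replicate 2 of 48 h was the only supporting replicate. In the 96 h list alone 239 of 276 (86.6%) had the motif and 21 (7.61%) a repeat. Sites within 200 kb of a start differed likewise, with 4.12% and 61.4% in the 48 h list alone and 91.5% and 2.84% in the 96 h list alone.

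**Figure D1:**
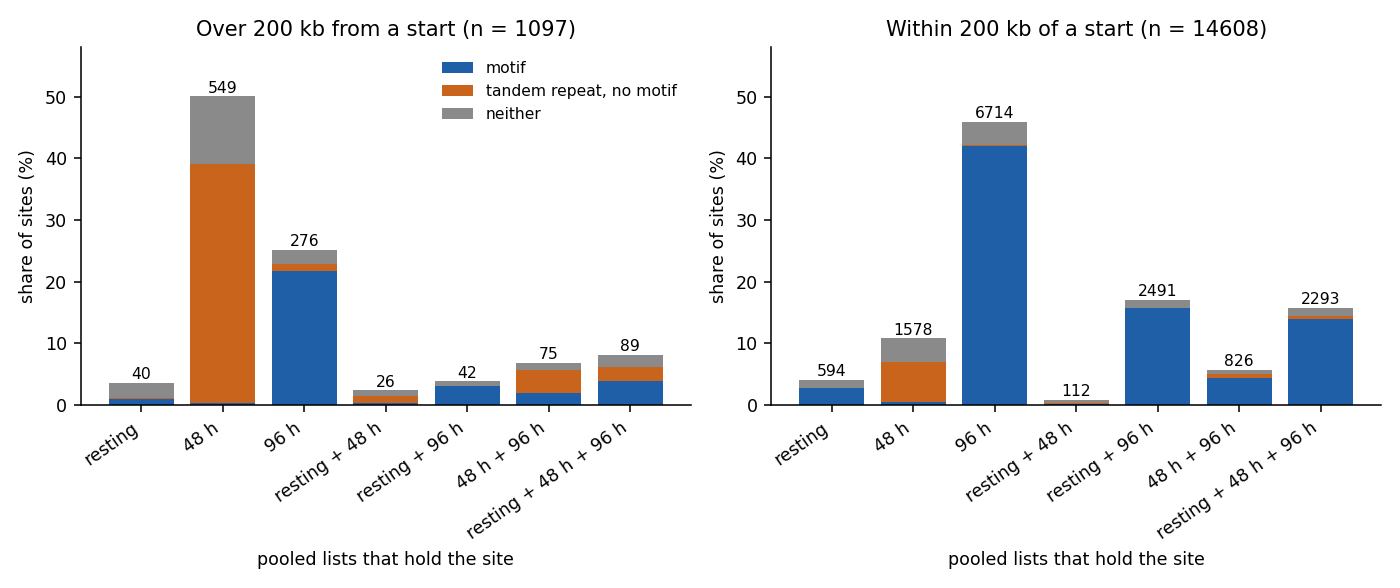
Share of sites (%) by the pooled lists that hold them, for sites over 200 kb from a protein-coding start (left) and within 200 kb (right), with numbers of sites above the bars and colours for the motif, a tandem repeat without the motif, or neither. The tallest bar on the left is the 48 h list alone with 549 sites, mostly repeats, and on the right the 96 h list alone with 6714, mostly with the motif.

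Support by replicates followed the same division. A replicate peak was found at 885 of the 1097 sites (80.7%) and peaks of at least 2 replicates at 199 (18.1%), against 40.2% with at least 2 among the other sites. At 541 promoter-distant sites (49.3%, against 9.97% of the others) the only supporting replicate was replicate 2 of 48 h, and 424 of these 541 had a tandem repeat. Without those sites 556 promoter-distant sites remained, which were 4.06% of 13708, and 35.8% of them had at least 2 replicates, against 44.6% of the others. Among the sites with the motif, 239 of 354 (67.5%) had a peak in at least 1 replicate and 122 (34.5%) in at least 2, while of 518 sites with a repeat and no motif 469 (90.5%) had at least 1 and 44 (8.49%) at least 2. A small set was nevertheless found in most replicates: 25 sites (2.28%) had peaks in at least 6 of the 9, against 911 (6.24%) of the other sites. Of the 25, 10 had the motif, 9 a repeat alone and 6 neither, and of the 911, 829 had the motif.

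The share of peaks that lay more than 200 kb from a start was then compared between the time points, replicate by replicate. In resting B cells it was 2.96%, 2.80% and 2.91%. In 48 h-stimulated B cells it was 3.25%, 26.0% and 4.41%, and in 96 h-stimulated B cells 2.96%, 2.68% and 2.95%. The 3 shares at 48 h were the highest of the 9, with replicate 2 far above the rest, and resting and 96 h overlapped. The means were 2.89% ± 0.0792 (SD, n = 3) in resting, 11.2% ± 12.8 at 48 h and 2.86% ± 0.158 at 96 h. The time points differed when F was compared over all divisions of the 9 replicates into groups of 3 (exact permutation p = 0.0321), and without replicate 2 of 48 h the p was again 0.0321. Without any 1 of the 6 resting or 96 h replicates the exact permutation p was 0.264 to 0.286. Those p could not be small, since placing the 26.0% in the group left with 2 replicates gives a larger F than observed. They therefore do not show how far the result rests on the replicate left out. The exact permutation p was 0.139 at a limit of 500 kb, 0.114 with starts of every annotated transcript and 0.111 with the replicate block. The call was lost under each of these settings. No pair of time points can reach a two-sided exact p below 0.1 with 3 against 3. The difference of 48 h minus resting was 8.33 percentage points (exact permutation p = 0.1, 0.15 after Benjamini-Hochberg adjustment over the 3 pairs) and fell to 0.945 without replicate 2 of 48 h, with every 48 h value still above every resting value. That order rests on few peaks, and counting intervals overlapped. Replicate 1 of 48 h had 50 promoter-distant peaks (3.25%, 2.42 to 4.26) and resting replicate 1 had 62 (2.96%, 2.27 to 3.77). The difference of 96 h minus resting was -0.0262 points (exact permutation p = 0.9, adjusted 0.9).

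**Figure D2:**
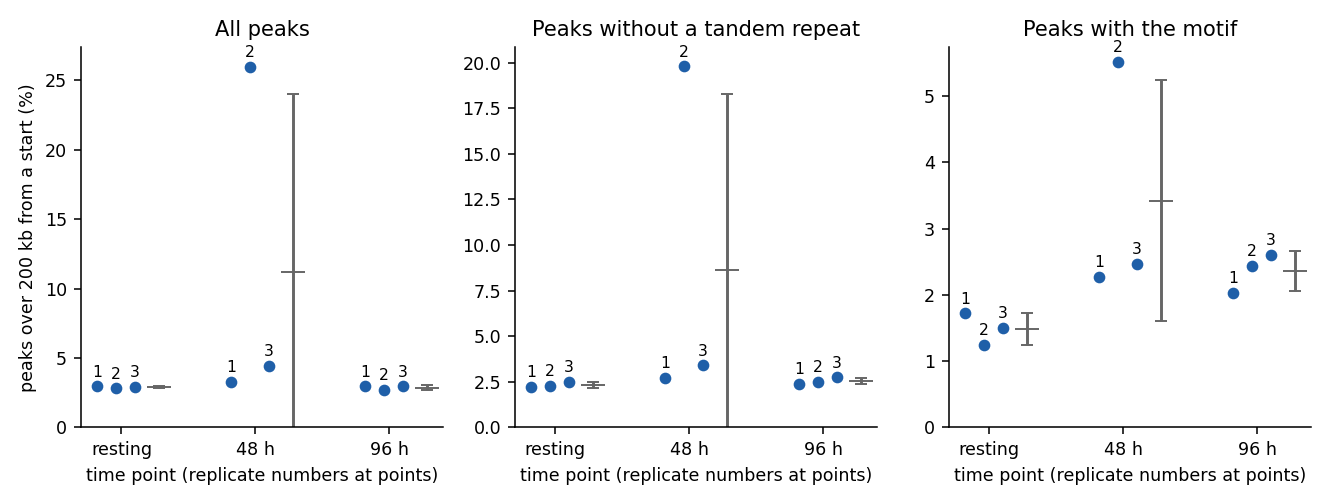
Percent of each replicate's peaks that lie over 200 kb from a protein-coding start, at rest, 48 h and 96 h, for all peaks, peaks without a tandem repeat and peaks with the motif (the 3 panels have different scales). Numbered points are replicates and bars the mean ± SD of 3, cut at 0 for 48 h; replicate 2 of 48 h is the highest point in each panel, at 26.0%, 19.8% and 5.52%.

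Among peaks with the motif, a comparison chosen after seeing the data, the promoter-distant share was 1.72%, 1.24% and 1.50% in the resting replicates. It was 2.28%, 5.52% and 2.47% at 48 h, where replicate 2 had only 10 such peaks, and 2.03%, 2.44% and 2.61% at 96 h. All 6 values of stimulated cells were above all 3 of resting cells. In replicate 2 of 48 h, however, only 0.732% of promoter-distant peaks and 4.60% of the others had the motif, against 5.00% of windows away from sites. Its value therefore rests on matches no more frequent than away from sites, and it enters the 48 h mean and the p below. Without it the 48 h mean was 2.37% (n = 2). The means were 1.49% ± 0.240 in resting B cells, 3.42% ± 1.82 at 48 h and 2.36% ± 0.298 at 96 h (SD, n = 3), with p = 0.05 for the 3 time points by the exact permutation test of F and an exact permutation p = 0.1 (adjusted 0.15) for 96 h minus resting, the smallest possible. The resting lists held 2097, 821 and 3578 peaks and the 96 h lists 2807, 4552 and 8579, and the part of list length in this difference was not tested.

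Promoter-distant peaks were then compared with the other peaks of the same replicate. The motif was less frequent in promoter-distant peaks in 9 of 9 replicates, with a mean difference of -27.8 percentage points (exact permutation test by sign change, two-sided p = 0.00391, adjusted 0.00781 over 4 measures, the smallest p that 9 replicates can give). The replicates share 1 genome, so this test and that for repeats below measure only the spread between replicates. In resting B cells 51.6%, 39.1% and 45.2% of promoter-distant peaks had the motif, against 88.2% to 88.9% of the others, counted on chromosomes not used to learn the motif. At 96 h the shares were 61.4%, 84.4% and 80.2%, against 90.3% to 93.3%. At 48 h they were 62.0%, 0.732% and 47.8%, against 90.3%, 4.60% and 87.9%. The distant peaks were below the others in every list, and least so in replicates 2 and 3 of 96 h and in replicate 2 of 48 h, where the motif was rare in both. A tandem repeat was more frequent in promoter-distant peaks in 9 of 9 replicates, by 15.8 points (exact permutation p = 0.00391, adjusted 0.00781). It was present in 18.3% to 29.0% of them at rest, in 20.0%, 70.9% and 27.5% at 48 h and in 9.84% to 22.9% at 96 h. Other peaks carried one in 2.78% to 4.62%, apart from 58.6% in replicate 2 of 48 h.

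The score is the authors' peak score, used here only as a percentile rank within its own list. The median percentile of promoter-distant peaks minus that of the others averaged -0.0264 over the 9 replicates (exact permutation p = 1, adjusted 1), being above 0 in 3, below 0 in 2 and exactly 0 in 4. By time point the mean difference was 2.86 ± 4.96 (SD, n = 3) in resting, 3.36 ± 3.51 at 48 h and -6.31 ± 6.29 at 96 h, and the exact permutation test of F over the time points gave p = 0.164. In the pooled lists the median percentile of promoter-distant sites was 42.7 in resting, 65.3 at 48 h and 40.2 at 96 h, against 50.3, 47.3 and 50.8 for the others. In the pooled 48 h list the promoter-distant repeat sites stood at a median percentile of 67.6 and the motif sites at 29.6, and the order was the same for sites within 200 kb, at 69.5 and 34.3. In the pooled 96 h list promoter-distant motif sites had a median percentile of 42.3 and the others with the motif 51.9. A replicate recovered fewer of the promoter-distant sites of its own pooled list than of the other sites in 8 of 9 replicates, with a mean difference of -5.04 points, which did not pass the test (exact permutation p = 0.477, adjusted 0.635). The exception was replicate 2 of 48 h, which had a peak at 81.3% of the promoter-distant sites of its pooled list and 38.0% of the others. Replicates 1 and 3 of 48 h had peaks at 5.55% and 8.25% of them, against 26.1% and 26.5% of the others. Without the difference of replicate 2 of 48 h the mean was -11.1 points, with promoter-distant sites lower in 8 of 8 replicates (exact permutation p = 0.00781, adjusted 0.0104). The pooled 48 h list still held the sites that replicate 2 alone supported, which replicates 1 and 3 lack by definition. Their differences of -20.5 and -18.2 points enter this mean, so it is not free of replicate 2. The mean difference was -6.38 points in the resting replicates and -10.3 in those of 96 h.

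The 2 kinds of site were spread along the genome differently. Sites with the motif numbered 10.0 per Mb of sequence within 3 kb of a start, 7.31 at 3 to 50 kb and 2.17 at 100 to 200 kb. Beyond the limit they numbered 1.02 per Mb at 200 to 300 kb, 0.617 at 300 to 500 kb, 0.239 at 500 to 1000 kb and 0.0786 beyond 1000 kb. Matches to the motif in the genome sequence itself, counted at a stricter level, fell as well but less steeply, from 80.4 per Mb within 3 kb to 11.5 beyond 1000 kb. Promoter-distant sequence held 11040 such matches, and 299 promoter-distant RAD21 sites had a match at that level within 100 bp of their centre. That made 2.71 sites per 100 matches, against 8.90 elsewhere, from 10059 sites and 113059 matches. A site counted once however many matches it held. Sites with a tandem repeat numbered between 0.764 and 0.911 per Mb in every band, with 0.869 within 3 kb of a start and 0.833 beyond 1000 kb. This evenness rested on replicate 2 of 48 h: without the sites that it alone supported, repeat sites fell from 0.425 per Mb within 3 kb to 0.205 at 100 to 200 kb and 0.142 beyond 1000 kb, while motif sites again went from 10.0 to 0.0786. The share of sites with the motif thus went from 77.6% within 3 kb to 43.8% at 200 to 300 kb and 6.94% beyond 1000 kb, and the share with a repeat from 6.71% to 38.8% and 73.6%. Without those sites the motif share went from 82.2% to 72.1% and 27.8% and the repeat share from 3.48% to 15.1% and 50.0%, the last from 18 sites. The GC content of the sequence went from 46.1% to 36.9% over the same bands, and its part in these densities was not tested.

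**Figure D3:**
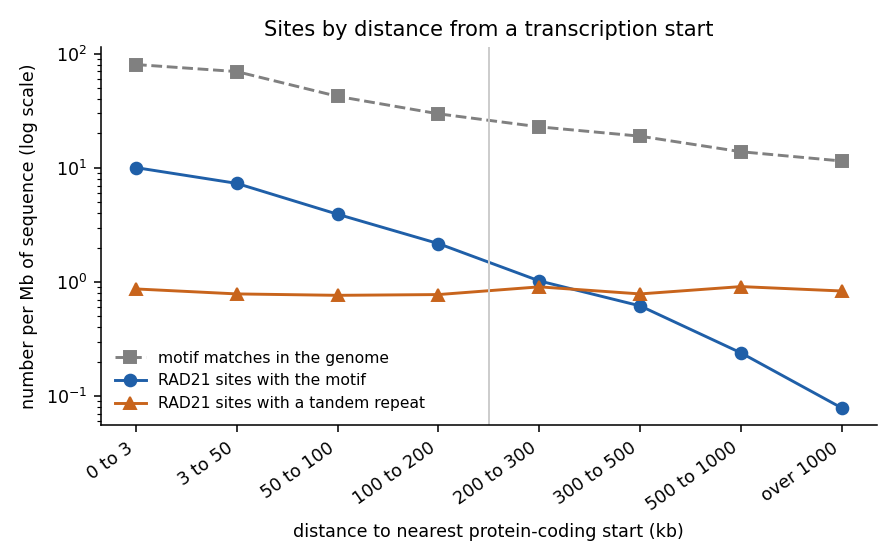
Number per Mb of sequence (log scale) of RAD21 sites with the motif, RAD21 sites with a tandem repeat and motif matches in the genome, by distance of the site or base from the nearest protein-coding start in kb; the vertical line marks 200 kb. Motif sites fall from 10.0 to 0.0786 per Mb while repeat sites, most of them supported by replicate 2 of 48 h alone, stay between 0.764 and 0.911.

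The 1097 sites lay in 529 of 1185 stretches of sequence more than 200 kb from a start, and 40 stretches held at least 5. Neighbouring sites in a stretch were a median of 131 kb apart (quartiles 40.4 and 373, 568 pairs). Without the sites that only replicate 2 of 48 h supported the median was 64.9 kb, over 221 pairs in 335 stretches. Sites with the motif occurred in 245 stretches, with a median of 79.1 kb between neighbours (109 pairs), and sites with a repeat in 331 stretches, with a median of 236 kb (201 pairs). A promoter-distant site was a median of 137 kb from the nearest other RAD21 site of any kind, and a site within 200 kb of a start 29.9 kb, or 155 and 30.3 kb without those sites.

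The CTCF motif has a direction, and loops form mostly between motifs that point towards each other. Among the 109 pairs of neighbouring promoter-distant motif sites in a stretch, 7 were convergent (6.42%, 2.62 to 12.8), 30 divergent (27.5%) and 72 pointed the same way (66.1%, 56.4 to 74.9). Among 11350 pairs of neighbouring motif sites within 200 kb of a start, 27.0% were convergent, 27.3% divergent and 45.7% pointed the same way. These pairs could have protein-coding starts between them, whereas the promoter-distant pairs by definition had none. For pairs more than 100 kb apart, 5 of 48 promoter-distant pairs were convergent (10.4%, 3.47 to 22.7) and 37.7% of 4504 others, and for pairs within 50 kb 2 of 46 (4.35%, 0.531 to 14.8) and 14.9% of 4465. Pairs share sites, the replicates do not enter this count and the difference was not tested.

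Peaks in all 9 replicates were found at 33 sites within 200 kb of a start (0.226%), 26 of them with the motif, and at 5 promoter-distant sites (0.456%). Of these 5, 1 had the motif, 2 a repeat and 2 neither. Described here are 3 of the 4 without the motif. The site chr10:100852925-100853171, between 1700017N19Rik and Mgat4c, a glycosyltransferase gene, had an AG repeat of 26 bases. Its score percentile was 98.9, 98.1 and 99.5 in the resting replicates, 99.3, 99.9 and 99.2 at 48 h and 98.5, 70.5 and 96.9 at 96 h. This repeat site, named because it had a peak in all 9 replicates, stood at or above percentile 70.5 in each of them. The site chr3:4338941-4339189 had neither feature and lay on n-R5s194, an annotated copy of a ribosomal RNA gene, 705 kb from Hnf4g. Its percentiles ranged from 81.3 to 99.97, and those of chr7:84177321-84177603, between Agbl1 and Ntrk3, from 54.8 to 99.9. In replicate 2 of 48 h the 3 sites stood between 99.87 and 99.97.

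**Figure D4:**
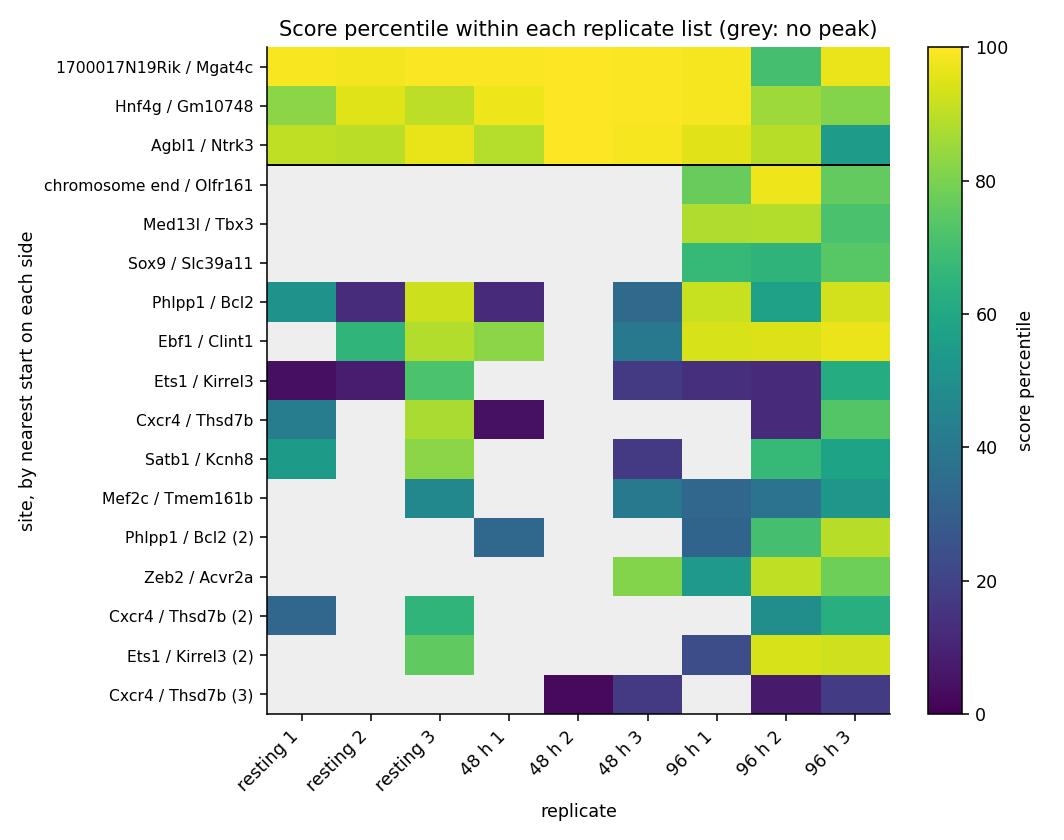
Score percentile (0 to 100) of 17 promoter-distant sites in each of the 9 replicates, with rows named by the nearest protein-coding start on each side, sites without the motif above the line and sites with it below, and grey for no peak. The 3 rows above the line have a peak in all 9 lists, at percentiles of 54.8 or more, and 3 rows between a chromosome end and Olfr161, Med13l and Tbx3, and Sox9 and Slc39a11 have peaks at 96 h only. These rows were chosen by the replicates that hold them.

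Genes on either side of the sites were sorted by lists that had been drawn up with earlier results of these data known. Genes of B cell regulation flanked 2.39% of the promoter-distant bases and 2.59% of the motif matches in them. They flanked 31 of the 354 sites with the motif (8.76%, 6.03 to 12.2), 17 of the 122 that also had at least 2 replicates (13.9%) and 10 of the 43 in all 3 pooled lists (23.3%). Of the 532 sites with a repeat they flanked 16 (3.01%). Genes of neuronal adhesion and synapses, which often border long deserts, flanked 24.2% of the bases and 19.9% of the motif matches in them. They flanked 130 of the repeat sites (24.4%), 38 of the motif sites (10.7%, 7.71 to 14.4) and 2 of the 43 motif sites in all lists (4.65%). Developmental regulators flanked 5.26% of the bases and 6.94% of the motif matches in them. They flanked 32 of the motif sites (9.04%, 6.27 to 12.5) and 0 of the 43, which allows a share of up to 6.98%. Olfactory and vomeronasal receptor genes flanked 7 sites, all beside Olfr161. Per Mb of flanked sequence the motif sites numbered 2.10 beside B cell regulators, 0.986 beside developmental regulators and 0.254 beside neuronal genes, whereas repeat sites numbered 1.08, 0.801 and 0.869. Of the 108 repeat sites not resting on replicate 2 of 48 h alone, 5 (4.63%) were flanked by B cell regulators, 6 (5.56%) by developmental regulators and 23 (21.3%) by neuronal genes. Neighbouring sites share a gene, so these counts are not independent, and none was tested. Motif sites also became rarer with distance, from 1.02 per Mb at 200 to 300 kb from a start to 0.0786 beyond 1000 kb. Of the 43 motif sites in all lists, 25 lay at 200 to 300 kb. The gene lists were not matched for distance, and its part in these shares and densities was not tested.

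**Figure D5:**
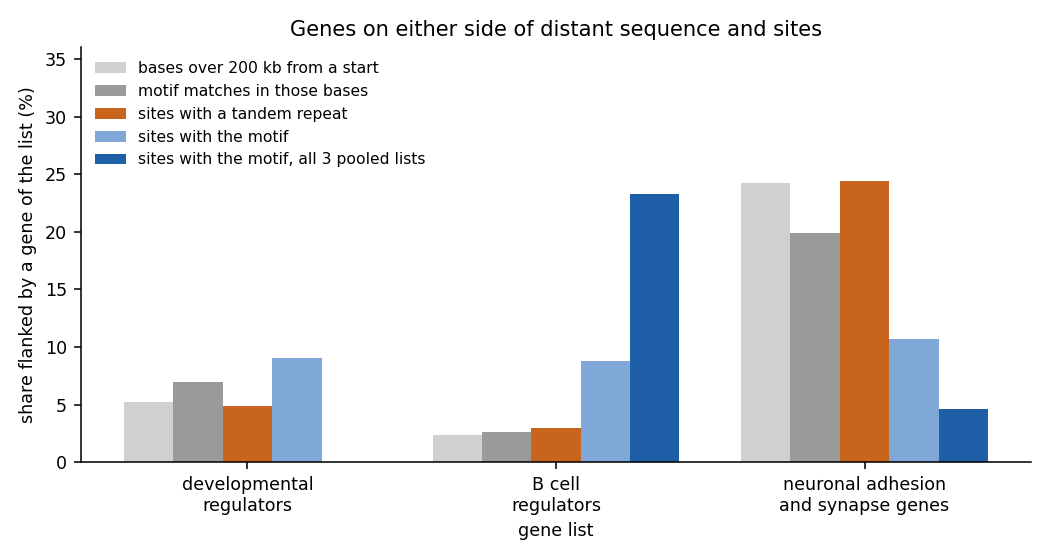
Share (%) flanked by a gene of each of 3 lists, for promoter-distant bases, motif matches in them, promoter-distant RAD21 sites with a repeat, with the motif, and with the motif in all 3 pooled lists. B cell regulators flank 2.39% of the bases and 23.3% of the last group, and neuronal genes 24.2% and 4.65%.

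Of the 70 annotated genes on the B cell list, 22 bordered a stretch of promoter-distant sequence and 14 flanked a site. For developmental regulators these numbers were 54 and 32, and for neuronal genes 96 and 65. The sites differed in strength among the B cell genes. Bcl2, an inhibitor of apoptosis, flanked 5 sites, 4 of them with the motif and 3 in all pooled lists. The strongest, chr1:108292132-108292423, lay 319 kb from its start and 224 kb from that of Phlpp1, and had peaks in 8 replicates. Its percentiles were 50.9, 12.5 and 92.4 at rest, 11.9 and 34.7 in replicates 1 and 3 of 48 h and 91.5, 57.1 and 93.0 at 96 h. The site chr11:44821605-44821936, 390 kb from the start of Ebf1, a transcription factor of B cell identity, had 7 replicates. It was absent from replicate 1 of resting and replicate 2 of 48 h, stood at 65.6 and 88.3 in the other resting lists and at 82.5 and 40.2 in the other 48 h lists, and reached 93.9, 94.7 and 97.1 at 96 h. It was thus high in each 96 h list and variable before. Ets1, a transcription factor of lymphocytes, flanked 5 sites with 4 motifs, the best supported of which, 400 kb away, had 7 replicates with percentiles of 4.12 to 71.7. Cxcr4, a chemokine receptor gene, flanked 3 motif sites 232 to 283 kb from its start, with 4, 5 and 4 replicates. Mef2c, a transcription factor of B cells and other tissues, flanked a motif site 201 kb away in the non-coding RNA gene C130071C03Rik with 5 replicates, and a site with neither feature 428 kb away with 6. Satb1, a chromatin organiser, flanked 5 sites, 3 of them with a repeat and 1, at 350 kb, with the motif and 5 replicates. Zeb2, a repressor, flanked 7 sites, of which 4 were AG or AC repeats. A motif site 1327 kb from it was in all 3 pooled lists with 4 replicates. That site lay 1.39 kb from the start of another annotated transcript. Klf3 and Runx1 flanked 1 site each, with at least 2 replicates. Bcl11a flanked 5 sites, 3 of them with a repeat, Id2 and Cd83 flanked 3 each and Prdm1 1. None of the sites beside these last 4 genes had peaks in 2 or more replicates.

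Myc, the growth regulator, flanked 9 sites, 5 of them with the motif. The motif sites at 828 kb and 585 kb on its upstream side were in the resting and 96 h lists with 3 replicates each. On the other side, towards Gsdmc, the only site in all 3 lists lay at 1303 kb and was an AG repeat with peaks in 6 replicates. The most sites beside a gene, after Gm3395 on the Y chromosome, were 10 each beside Pcdh7 and Pcdh9, protocadherin genes of neurons. Beside Pcdh7 no site had the motif and 8 had a repeat, and beside Pcdh9 1 had the motif and 6 a repeat. Efna5, an ephrin gene, and Nudt12 bordered a stretch of 3.30 Mb with 9 sites, 8 of them repeats and none with the motif, each supported by replicate 2 of 48 h alone. The stretch between Sox9, a developmental transcription factor, and Slc39a11 held 5 sites, all with the motif, of which 4 lay in the long non-coding RNA gene 2610035D17Rik and 4 had at least 2 replicates. None of the 5 was in the 48 h list, 5 were in the 96 h list and 3 in the resting list.

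All-or-none sites, with a peak in all 3 replicates of 1 time point and no peak in the 3 of another, were counted beside the same count over all 15705 sites. For 96 h against resting, 19 promoter-distant sites met the rule (1.73%), against a background of 3.83%, and 0 met the opposite one (background 0.0573%). For 96 h against 48 h, 17 met it (1.55%, background 5.27%), and for 48 h against 96 h 1 did (0.0912%, background 0.0191%). No promoter-distant site separated 48 h from resting in either direction, with backgrounds of 0.0382% and 0.802%. A count of 0 allows a share of up to 0.273%. The motif share was not counted over all sites that met the rule for 96 h against resting or against 48 h. In the 96 h list alone, 86.6% of promoter-distant sites and 91.5% of the others had the motif. All 19 and all 17 promoter-distant all-or-none sites had it. The highest-scoring of them, chr16:3122887-3123184, lay 469 kb from Olfr161 near the start of the chromosome, at percentiles of 76.6, 97.4 and 76.0 at 96 h. The next, chr5:119231660-119231915, lay 221 kb from Med13l and 889 kb from Tbx3 and stood at 88.3, 88.3 and 71.5. That at chr11:113026466-113026702, beside Sox9, stood at 66.9, 65.0 and 74.1. None of these 3 had a peak in any resting or 48 h list, and for the replicate lists this is the rule that chose them. The 1 site in all 48 h and no 96 h replicates, chr10:66004774-66004998 between Lrrtm3 and Jmjd1c, had a CT run of 20 bases, percentiles of 56.5, 99.1 and 48.1 at 48 h, and peaks in 2 resting replicates at 56.4 and 47.6, and was held by the pooled 96 h list at percentile 42.3.

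The sites named as farthest from a protein-coding start had a peak in at most 1 replicate. The farthest, chr14:92251834-92251930, was 1954 kb from Gm10110, though 516 kb from the start of any annotated transcript, and had a peak in replicate 2 of 48 h only, at percentile 69.5. Its neighbour chr14:92334320-92334459, 1951 kb from Pcdh9, was at percentile 3.24 of the pooled 96 h list with no replicate. In the desert between 4930555F03Rik and Aga, the sites at 1816 kb and 1782 kb, with repeats of AAG and AG, had a peak in replicate 2 of 48 h and in no other. Of the 315 sites more than 500 kb from a start 47 had the motif, and of the 72 beyond 1000 kb 5 did. Near the 200 kb limit the distances were continuous, with the nearest sites outside it at 200.2, 200.3 and 200.3 kb, beside Gm7489, Slit2 and Arhgap15, and the nearest inside it at 199.9, 199.4 and 199.3 kb, beside Fam5b, Cdh26 and Gnpda2.

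The largest group in a single stretch lay on the Y chromosome, where 22 sites stood within 0.102 Mb of sequence beyond Gm3395. The Y chromosome held 23 promoter-distant sites in 0.361 Mb, 20 of them with neither motif nor repeat, and 17 of the 23 were in the resting list. They made up 12 of the 40 sites found in the resting list alone, and of the other 28 resting-only sites 10 had the motif. The median percentile of the Y sites was 9.48, and 9 of the 23 had no replicate. On the autosomes the density of promoter-distant sites ranged from 1.47 to 2.42 per Mb, and on the X chromosome it was 0.510, with 0.121 motif sites per Mb. Few members lay on other kinds of gene: 30 sites lay in a long non-coding or processed transcript, 4 on ribosomal RNA genes, and 8 within 200 kb of an immunoglobulin or T cell receptor gene segment, which the rule did not count as protein-coding.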

How the data were processed

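The deposited data were 12 peak lists of RAD21 ChIP-seq, 9 of replicates and 3 pooled. The authors aligned reads to mm9 with Bowtie 2, drew the same number of unique positions from each set, and ran MACS 2 with input as control (false discovery rate 0.05). Replicates were merged for the pooled lists. Each deposited peak has a position and a score from the authors' caller. Which statistic the score holds is not given in the sources used here. The 9 input libraries were not analysed here. Drawing equal numbers of positions levels depth between lists, but the lists give no counts.

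Scripts used numpy 2.4.6 and scipy 1.17.1 for tests, pysam 0.24.0 and numba 0.67.0 for sequence and matplotlib 3.10.9 for plots, under Python 3.11.15. Distances ran from the site's centre to 51710 protein-coding transcript starts of GENCODE M1. The motif was learned on 399 sites within 200 kb of a start, on even-numbered chromosomes, with peaks in at least 6 replicates (threshold 9.72 log2 odds, passed by 90.5% of them), and the genome was scanned at 13.7. Tests were exact permutation tests over replicates at a threshold of 0.05, and scripts were tested on simulated data. Members, gene lists and tests were chosen with earlier results of these data known.

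The rule for naming took the 5 sites with most replicates, the 5 farthest from a start, the highest in each combination of pooled lists, the stretches with most sites, up to 3 all-or-none sites per direction, the 3 nearest the 200 kb limit on each side, their flanking genes, the 10 genes flanking most sites and list genes. Some sites that met the rule are not reported here. The single sites beside Bcl2, Ebf1, Ets1, Cxcr4, Mef2c, Satb1, Zeb2 and Myc, and the Y chromosome, were chosen after their values were seen. Alternatives covered the distance limit, the annotation, score minimum, list length, chromosomes, repeats and left-out replicates.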

Additional observations from a re-analysis of the deposited data

How the results depend on the processing

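Of 123 alternative values with a p, 101 kept their direction and their side of the threshold, and of 49 without a p 17 stayed close to the reported value. The p for the 3 time points was below 0.05 at F = 1.27, and was lost at 500 kb (F = 1.13), with starts of every annotated transcript (F = 1.25), and with the replicate block (F = 1.25, exact permutation p = 0.111). Leaving out each replicate gave F from 0.986 to 4.66. The difference of 96 h minus resting, -0.0262 points, turned positive at 100 kb (0.0180), outside coding transcripts (0.0663), on autosomes only (0.0799), without repeats (0.218) and among motif peaks (0.869), and ranged from -0.0736 to 0.0647 without each replicate. The difference of 48 h minus resting ranged from 0.945 to 12.3 and of 96 h minus 48 h from -12.3 to -0.971. The percentile difference turned positive at 500 kb (6.93), with starts of every transcript (1.97) and on autosomes only (1.44), and ranged from -1.10 to 1.54 without each replicate, the recovery from -11.1 to -3.11, the motif from -30.8 to -25.1 and repeats from 14.7 to 16.9. The number of sites was 2277 at 100 kb (14.5% of all; 9.93% in all 3 lists, 74.6% in 1), 315 at 500 kb (2.01%; 6.35%, 82.5%), 458 with starts of every transcript (2.92%), 453 with the stricter score (5.11%), 556 without sites of 48 h replicate 2 alone (4.06%; 15.3%, 67.8%), 565 without repeats (4.14%; 11.2%, 73.8%), 354 with the motif (2.96%; 12.1%, 71.5%), and, with at least 1 replicate, 7.40% of all sites (10.1%, 74.6%). The median spacing, 131 kb, was 81.0 at 100 kb, 211 at 500 kb, 64.9 without sites of 48 h replicate 2 alone, 67.5 without repeats and 79.1 with the motif. The motif alternatives were chosen after seeing the data. Replicate numbers did not pair the samples: same-numbered replicates correlated between -0.161 and 0.252 in their deviations, 4 of 9 best with their own number. The block changed no other call with a p, and gives none for the differences within replicates. Without read counts, depth limits what a missing peak can show.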
